A study of Homo sapiens with 14 samples.

Results

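The genes described here make, sense, take up and export cholesterol, and they were followed in 22Rv1, a human prostate carcinoma cell line, under loss or mutation of FOXA1, a forkhead pioneer transcription factor that opens chromatin for other factors. The 30 genes were chosen by name, by their step in the pathway, with earlier results of these data known. Their counts beside the share of all genes are therefore descriptions. All 30 of them had a row in each of the 4 count tables, the largest of which held 57905 features. The expression of 7 groups was measured by RNA sequencing with 2 libraries in each group. In 3 groups the cells carried a FOXA1 fusion with a degradable tag (FOXA1_dTAG, where a small molecule marks the tagged protein for destruction), sampled at 0 h, 1 h and 24 h. Cells that received lentivirus against FOXA1 (shFOXA1) were set against cells that received control lentivirus (shCtrl). Cells labelled R219S, a missense change in FOXA1, were set against cells labelled WT, and both carried FOXA1_dTAG.

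All cells grew in RPMI medium with fetal bovine serum, which holds lipoprotein cholesterol. The labels say that the degron, R219S and WT cells received either dTAG or DMSO, and they do not say which of these the R219S and WT libraries received. They name no vehicle group at 24 h and no untagged line treated with the degrader, so an effect of time in culture or of the compound cannot be told apart from loss of FOXA1. Both shCtrl titles read 22Rv2, against 22Rv1 in their cell line label. Whether a line was 1 clone, how R219S was introduced, and whether libraries of a group came from separate cultures is not given in the labels. A p-value here therefore reflects library-to-library spread alone, which may be technical.

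Cells make cholesterol from acetyl-CoA. The mevalonate pathway first builds isoprenoid units, these are joined to squalene, squalene is folded into lanosterol, and a series of reductions, demethylations and shifts of double bonds turns lanosterol into cholesterol. The rate is set by supply: when sterol in the endoplasmic reticulum is low, SCAP carries the transcription factor SREBP-2 (encoded by SREBF2) to the Golgi, where it is cut and released to switch on nearly the whole pathway, and INSIG proteins hold SCAP back when sterol is high. Excess sterol, as oxysterols, activates the nuclear receptor LXR, which raises the exporters ABCA1 and ABCG1 and the ubiquitin ligase MYLIP. Prostate cancer cells use cholesterol for membranes and as a precursor of androgens.

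Library totals lay between 21560090 and 38465155 counts. FOXA1 mRNA, which a degron does not act on directly, was 205 and 196 CPM (counts scaled to library size with TMM factors) at 24 h, against 171 and 169 CPM at 0 h (log2 change 0.23 ± 0.039, SE, edgeR adjusted p = 7.60e-06), and 169 and 166 CPM at 1 h, against 169 and 167 CPM at 0 h. It was 299 and 305 CPM in shFOXA1 cells, against 402 and 435 CPM in shCtrl cells, a log2 change of -0.47 ± 0.062 (edgeR adjusted p = 0.000275). It was 703 and 681 CPM in R219S cells, against 1019 and 1032 CPM in WT cells (log2 change -0.57 ± 0.036, edgeR adjusted p = 1.28e-45), and these counts do not separate tagged, mutant and endogenous transcripts. The luminal epithelial markers HOXB13, KRT8, KRT18 and EPCAM had counts in every library. Of 3 leukocyte and 3 endothelial markers, the summed level was at most 1.18 and 0.40 CPM in any library, and CD3E was at 0 in all but the second 24 h and second R219S library.

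The level of the pathway per kilobase of exon was compared within each control group, as CPM divided by the length of the gene's exons in GENCODE v29. FDFT1, which makes squalene, stood highest of the 30 in all 3 control groups, at 55.7 ± 1.31 CPM per kb at 0 h, 155 ± 3.56 in shCtrl cells and 113 ± 0.857 in WT cells (SD, n = 2 each). SREBF2 had rank 3 at 0 h, 5 in shCtrl cells and 2 in WT cells, and HMGCS1 had rank 4 at 0 h, 2 in shCtrl cells and 8 in WT cells. NPC1L1, ABCA1, ABCG1 and INSIG2 took the lowest 4 ranks in every control group, from 0.0972 CPM per kb for NPC1L1 in WT cells to 2.15 for INSIG2 in shCtrl cells. NPC1L1 rested on 12 to 34 counts in the degron, R219S and WT libraries, so only large changes of this gene were detectable there.

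The 250 bases upstream of the annotated start (RefSeq, GRCh38.p14) were read for the 26 of 30 genes with an entry in the promoter table. The CCAAT box (letters CCAAT), which the factor NF-Y binds beside SREBP-2, was present on either strand in at least 1 promoter of 19 of these 26 genes and of 13 of the 15 synthesis genes, and in 32.0% of all 34941 promoters. A short form of the sterol regulatory element (CACNCCAC) was present in 5 of the 26 genes and in 4.87% of all promoters. A forkhead motif (TGTTTNC) was present in 4 of the 26 genes and in 15.5% of all promoters. The GC box of SP1 (GGGCGG) was present in 24 of the 26 genes and in 42.55% of all promoters. The LXR element DR4, a direct repeat of the nuclear receptor motif with a spacer, was found in ABCA1 among the 26 genes and in 0.215% of all promoters, and its letters were written with the ABCA1 site in mind. Both strands were searched, genes with several starts had several chances to match, and no match printed in capitals overlaps one of another motif. Counted by promoter, 56.76% of the 37 promoters of these genes held a CCAAT box and 83.78% a GC box. A sterol regulatory element was in 13.51%, a forkhead motif in 10.81% and the LXR element in 2.70%. The 4 promoters below are of 3 genes that were lower at 24 h and in shFOXA1 cells and of ABCA1, which was higher at 24 h. They are given 5′ to 3′ on the gene's strand, and capitals mark matches to the CCAAT box (CCAAT, or ATTGG on the other strand), to CACNCCAC and to the LXR element on either strand.
HMGCS1, chr5:43313413-43313662, minus strand: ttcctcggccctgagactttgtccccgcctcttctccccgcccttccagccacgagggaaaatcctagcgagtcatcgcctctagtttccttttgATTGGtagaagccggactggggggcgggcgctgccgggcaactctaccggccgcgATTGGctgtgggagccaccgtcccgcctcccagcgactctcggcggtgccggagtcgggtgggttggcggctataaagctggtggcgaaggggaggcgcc
MSMO1, chr4:165327419-165327668, plus strand: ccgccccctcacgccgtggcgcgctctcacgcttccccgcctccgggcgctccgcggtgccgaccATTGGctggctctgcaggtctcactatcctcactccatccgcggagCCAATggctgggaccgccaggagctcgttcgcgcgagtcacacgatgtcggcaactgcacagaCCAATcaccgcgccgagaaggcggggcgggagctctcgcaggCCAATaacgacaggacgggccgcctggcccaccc
INSIG1, chr7:155297628-155297877, plus strand: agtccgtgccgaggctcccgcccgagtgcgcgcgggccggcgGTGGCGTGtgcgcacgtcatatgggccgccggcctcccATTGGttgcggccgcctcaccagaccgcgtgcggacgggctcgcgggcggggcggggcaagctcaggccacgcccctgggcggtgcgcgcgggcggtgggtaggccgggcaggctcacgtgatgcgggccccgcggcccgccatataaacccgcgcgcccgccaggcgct
ABCA1, chr9:104928156-104928405, minus strand: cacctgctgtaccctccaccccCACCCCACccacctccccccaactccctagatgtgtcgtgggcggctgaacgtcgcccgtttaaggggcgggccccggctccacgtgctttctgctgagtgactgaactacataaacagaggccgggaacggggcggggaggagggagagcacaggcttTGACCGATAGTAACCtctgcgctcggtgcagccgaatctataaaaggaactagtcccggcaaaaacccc
In these printed promoters MSMO1 held 4 CCAAT boxes, HMGCS1 2 and INSIG1 1, and ABCA1 held none of them. Another annotated promoter of HMGCS1, which is not printed, held 0. Other coordinates are not printed, because the deposited counts were made on hg19. The match of a motif is a description of letters, and binding was not measured.

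At 1 h of FOXA1 depletion most of the synthesis genes were higher than at 0 h, by small amounts. Of the 30 genes, 16 were higher and 2 lower at an edgeR adjusted p under 0.05, where 10.7% of 19397 genes tested were called higher, 9.12% lower and 19.8% in all. The median log2 change was 0.13 over the 30 genes and 0.00 over all genes. The call of IDI1 was lost without the second 1 h library. Of the 18 synthesis genes 13 were higher and 0 lower. By DESeq2 these counts were 10 and 0, where 1044 of all genes were called higher and 807 lower. At an unadjusted p under 0.05 they were 14 and 0, and the share of all genes at that threshold was not computed. INSIG1, SREBF2 and SCAP among the 4 sensing genes were also higher, and the sterol carriers STARD4 and NPC1 were the pair that was lower. None of the 4 LXR and export genes was called, by edgeR, by DESeq2 or at an unadjusted p under 0.05 (0 of 4 each). The synthesis genes also moved together between the 0 h libraries: 15 were higher and 3 lower in the second. Their median log2 ratio there was 0.04, beside a median change of 0.20 at 1 h. Over all genes of at least 10 CPM the median ratio was -0.001.

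At 24 h the direction was the opposite for most of the pathway. Of the 30 genes, 19 were lower and 4 higher, where 24.8% of 19607 genes tested were called lower, 22.1% higher and 46.9% in all. The median log2 change was -0.38 over the 30 genes and 0.01 over all genes. Of the 18 synthesis genes 16 were lower, with a median fold of 0.750, 1 was higher (LSS) and 1 was not called (EBP). The 1 h and 24 h comparisons share their 0 h libraries, so they are not independent. In the fit of all 6 degron libraries, 24 h against 1 h, 21 of the 30 genes were lower and 4 higher (45.7% of 20027 genes called in all, 24.5% lower), and 17 of the 18 synthesis genes were lower.

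**Figure D1:**
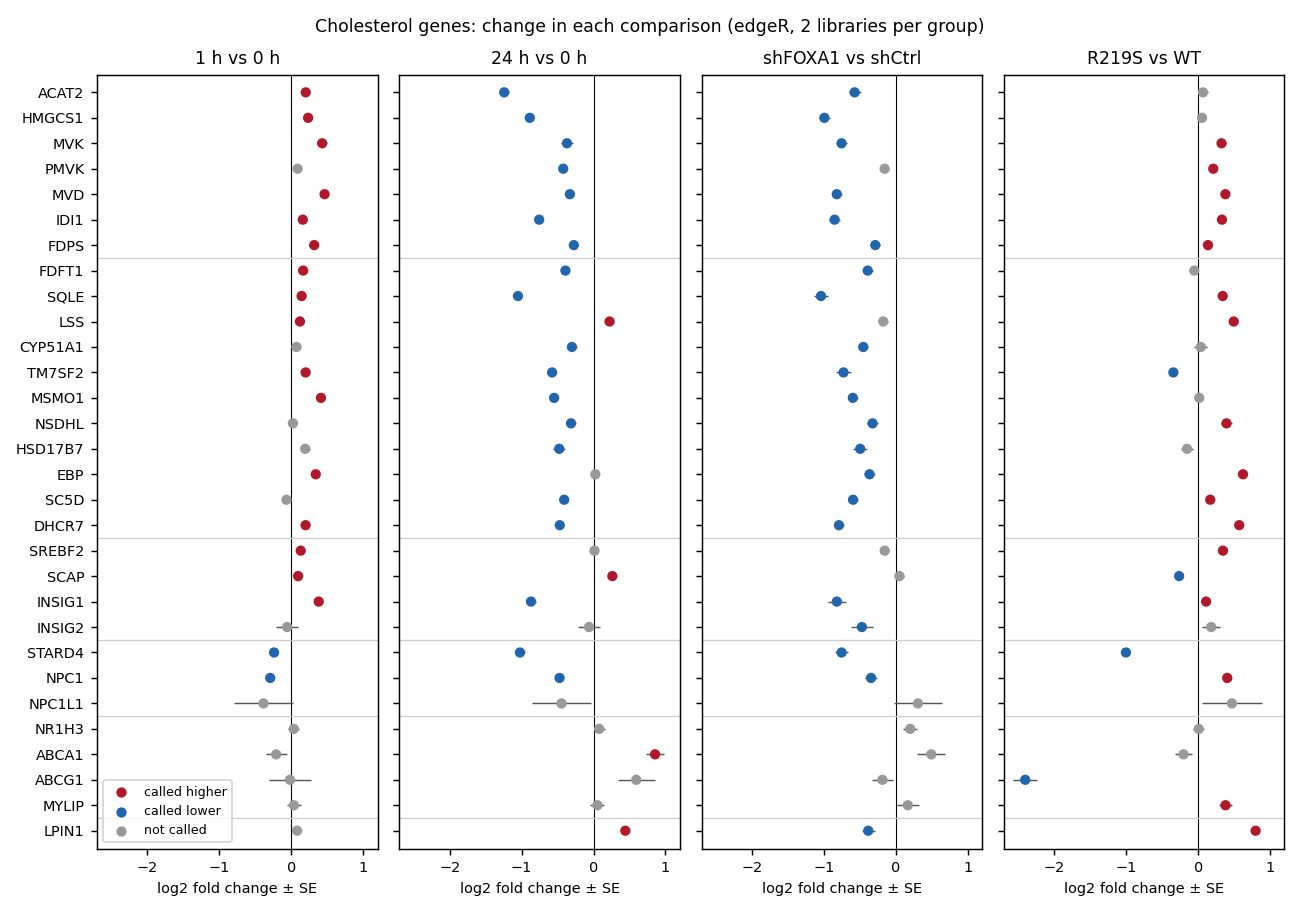
Log2 fold change (x axis, with SE) of each of the 30 genes (y axis, ordered by pathway step) in 4 comparisons of 2 libraries a group. Red points were called higher, blue lower and grey not called at an edgeR adjusted p under 0.05. The synthesis genes in the upper 18 rows sit mostly right of 0 at 1 h, left of 0 at 24 h and in shFOXA1 cells, and mostly right of 0 in R219S cells.

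ACAT2, the cytosolic thiolase that joins acetyl-CoA units, was 40.1 and 41.0 CPM at 0 h, 47.3 and 46.0 CPM at 1 h and 16.9 and 17.4 CPM at 24 h. HMGCS1, the synthase that makes hydroxymethylglutaryl-CoA, was 189.7 and 202 CPM at 0 h, 228 and 234 CPM at 1 h and 105 and 107 CPM at 24 h. In both genes the 3 times did not overlap: 1 h was highest and 24 h lowest. ACAT2 changed by 0.20 ± 0.054 at 1 h and by -1.24 ± 0.070 at 24 h (log2, SE, edgeR adjusted p = 0.00323 and 9.70e-16), and HMGCS1 by 0.23 ± 0.032 and -0.89 ± 0.042 (edgeR adjusted p = 1.45e-08 and 1.31e-17). ACAT2 at 1 h was no longer called by DESeq2 or without the first 1 h library. ACAT2 overlaps TCP1 on the opposite strand and the strand setting of the counting is not given in the sources used here, so reads of the pair may be mixed.

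The kinases and the decarboxylase of the mevalonate pathway followed. MVD, the decarboxylase, was 49.1 and 47.4 CPM at 0 h, 66.1 and 66.9 CPM at 1 h and 37.8 and 38.9 CPM at 24 h. Its log2 change at 1 h, 0.46 ± 0.048 (edgeR adjusted p = 5.05e-13), was the largest of the 18 called. With the GC and length correction it was 0.29, and those of MSMO1 (0.45), INSIG1 (0.40) and MVK (0.37) were larger. Mevalonate kinase, MVK, was 24.9 and 27.0 CPM at 0 h, 36.6 and 33.4 CPM at 1 h and 21.6 and 18.5 CPM at 24 h, with log2 changes of 0.43 at 1 h and -0.37 at 24 h. The phosphomevalonate kinase PMVK changed by 0.09 at 1 h, which was not called, and by -0.42 at 24 h. IDI1, which isomerises the isoprenoid unit, was 113 and 118 CPM at 0 h, 128 and 131 CPM at 1 h and 68.1 and 68.9 CPM at 24 h. FDPS, which makes farnesyl diphosphate, was 141 and 150.0 CPM at 0 h, 183 and 180.5 CPM at 1 h and 116 and 124 CPM at 24 h. For MVD, MVK, IDI1 and FDPS no 1 h library overlapped a 0 h library and all 24 h libraries were lower than all 0 h libraries. FDPS has processed pseudogenes that could take a share of its reads.

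Among the genes that make squalene and lanosterol, SQLE, the squalene epoxidase, was 78.2 and 78.7 CPM at 0 h, 86.5 and 87.1 CPM at 1 h and 37.1 and 38.6 CPM at 24 h, a log2 change of -1.05 ± 0.052 at 24 h (edgeR adjusted p = 3.75e-17). The squalene synthase FDFT1 changed by 0.17 at 1 h and -0.39 at 24 h. LSS, the cyclase that makes lanosterol, changed by 0.12 at 1 h and 0.22 ± 0.042 at 24 h (edgeR adjusted p = 4.54e-05) and was the synthesis gene that was higher at 24 h. The calls of SQLE and LSS at 1 h were lost under DESeq2 and without either 1 h library, and that of LSS also without the first 0 h library and with a correction for GC content and length.

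Of the 8 late sterol genes, 4 were higher at 1 h and 7 were lower at 24 h. MSMO1, an oxidase that takes part in the removal of ring methyl groups, was 109 and 116 CPM at 0 h, 152 and 147 CPM at 1 h and 79.7 and 74.0 CPM at 24 h. Its log2 change was 0.41 ± 0.036 at 1 h and -0.55 ± 0.047 at 24 h (edgeR adjusted p = 4.01e-16 and 1.98e-11). TM7SF2, a sterol reductase, was 117 and 120.0 CPM at 0 h, 134 and 138 CPM at 1 h and 81.5 and 77.1 CPM at 24 h. EBP, an isomerase that moves a ring double bond, was 59.5 and 60.5 CPM at 0 h, 75.8 and 76.3 CPM at 1 h and 60.4 and 61.6 CPM at 24 h. The EBP libraries of 24 h and 0 h overlapped, and its 24 h change of 0.02 ± 0.050 was not called. DHCR7, the last reductase, changed by 0.20 at 1 h and -0.47 at 24 h. CYP51A1, NSDHL, HSD17B7 and SC5D changed by -0.07 to 0.19 at 1 h, none of them called, and by -0.30, -0.31, -0.48 and -0.41 at 24 h, all called. The 24 h call of CYP51A1 was lost without the second 0 h library and with the GC correction (adjusted p = 0.095 and 0.068), and HSD17B7 has a transcribed pseudogene copy.

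**Figure D2:**
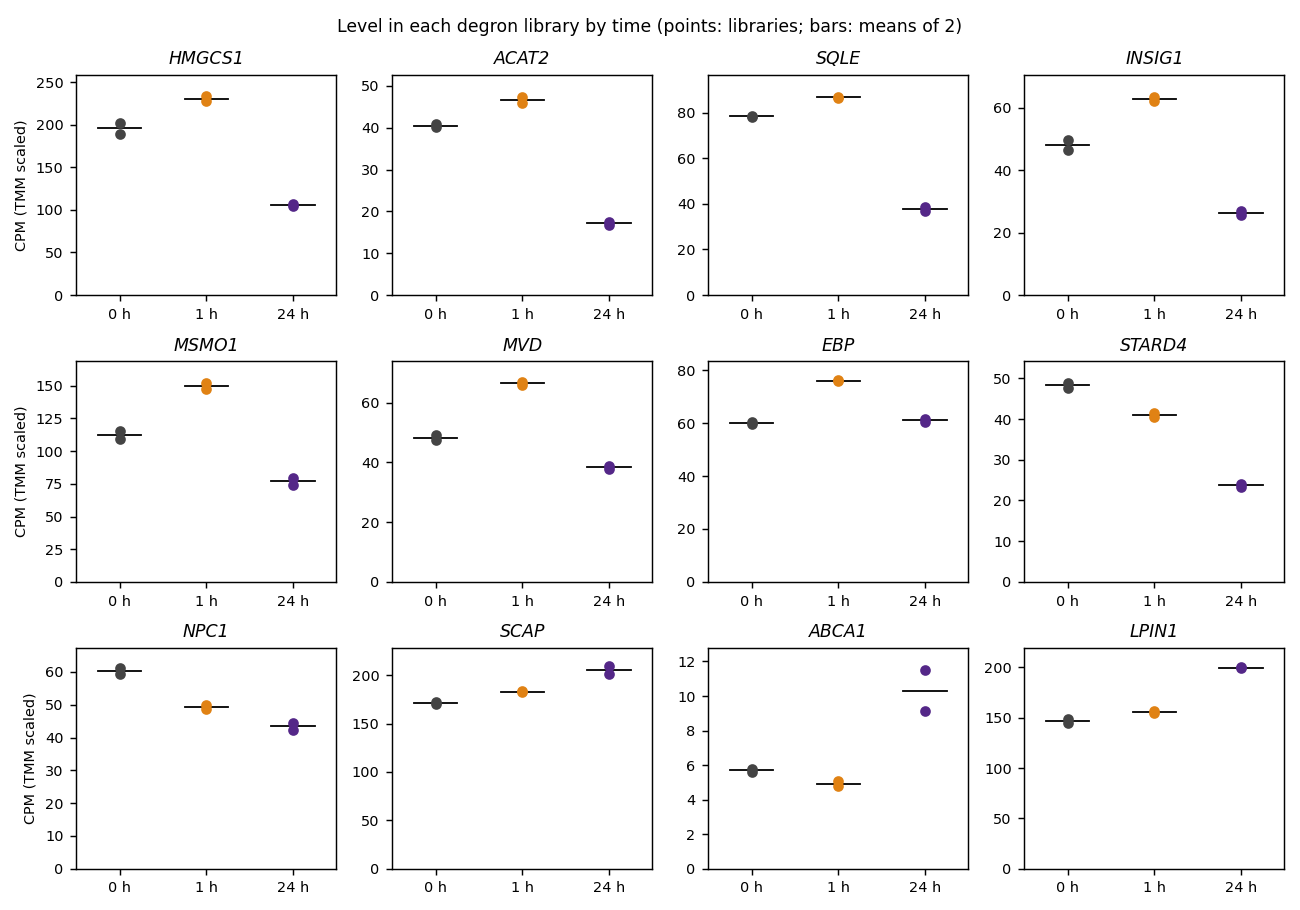
CPM (y axis, linear from 0, TMM scaled over the 6 libraries) of 12 of the 30 genes at 0 h, 1 h and 24 h of the degron series. Points are single libraries and bars are means of 2. HMGCS1, ACAT2, SQLE, INSIG1, MSMO1 and MVD peak at 1 h and are lowest at 24 h, STARD4 and NPC1 are lower at both later times, and ABCA1, SCAP and LPIN1 are highest at 24 h.

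The sensing genes did not move as a unit. INSIG1, the INSIG protein that SREBP-2 itself induces, was 46.5 and 49.7 CPM at 0 h, 62.0 and 63.5 CPM at 1 h and 27.0 and 25.6 CPM at 24 h, a log2 change of 0.38 ± 0.049 at 1 h and -0.87 ± 0.063 at 24 h (edgeR adjusted p = 1.24e-09 and 5.24e-13). INSIG2, which SREBP-2 does not induce in the same way, was 5.10 and 4.78 CPM at 0 h, 4.35 and 5.16 CPM at 1 h and 4.78 and 4.68 CPM at 24 h, and the times overlapped. SREBF2 was 322 and 310.2 CPM at 0 h, 347 and 346 CPM at 1 h and 324.5 and 312 CPM at 24 h. Its 1 h libraries lay above the others, and its 24 h change of 0.01 ± 0.037 was not called. With the GC correction it was -0.09 and called (adjusted p = 0.018). SCAP was 172 and 170.2 CPM at 0 h, 184 and 182 CPM at 1 h and 209 and 201.5 CPM at 24 h, a log2 change of 0.26 ± 0.039 at 24 h. The 1 h change of SCAP, 0.10, was the smallest called and was lost under DESeq2, without the second 0 h library and without either 1 h library, and was -0.02 with the GC correction.

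Of the carriers, STARD4, which moves sterol through the cytosol, was 47.7 and 48.9 CPM at 0 h, 41.5 and 40.4 CPM at 1 h and 24.1 and 23.4 CPM at 24 h. Its log2 change was -0.24 ± 0.053 at 1 h and -1.02 ± 0.063 at 24 h (edgeR adjusted p = 0.000342 and 8.86e-15). NPC1, which releases cholesterol from lysosomes, was 61.3 and 59.5 CPM at 0 h, 50.0 and 48.7 CPM at 1 h and 44.5 and 42.5 CPM at 24 h. Both genes were thus lower at each later time, with no overlap. NPC1L1, the intestinal uptake transporter, was 1.00 and 0.626 CPM at 0 h, 0.473 and 0.771 CPM at 1 h and 0.735 and 0.456 CPM at 24 h, and was not called.

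On the export side ABCA1, which loads cholesterol onto apolipoproteins, was 5.78 and 5.61 CPM at 0 h, 4.79 and 5.07 CPM at 1 h and 11.5 and 9.12 CPM at 24 h. The 24 h libraries lay above the others and differed from each other by more than those of 0 h did (log2 change 0.86 ± 0.13, edgeR adjusted p = 1.33e-06). ABCG1, which exports to mature lipoproteins, was 1.15 and 1.45 CPM at 0 h, 1.33 and 1.24 CPM at 1 h and 1.90 and 2.04 CPM at 24 h. Its 24 h change of 0.59 ± 0.26 was not called (edgeR adjusted p = 0.060) but was called when genes under 1 CPM were left out (0.048). The LXR gene NR1H3 was 21.2 and 19.5 CPM at 0 h, 21.3 and 20.4 CPM at 1 h and 21.4 and 21.6 CPM at 24 h. MYLIP, the ligase that marks lipoprotein receptors for degradation, was 11.7 and 12.4 CPM at 0 h, 12.5 and 12.3 CPM at 1 h and 11.9 and 13.1 CPM at 24 h. Neither NR1H3 nor MYLIP was called at 1 h or 24 h. LPIN1, a phosphatidate phosphatase of triglyceride synthesis that SREBPs also control, changed by 0.08 at 1 h, which was not called, and by 0.44 ± 0.039 at 24 h, where it was 200 and 199 CPM, against 149 and 145 CPM at 0 h.

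Composition of transcripts moved with the 1 h comparison. Across genes, which are not independent replicates, Spearman's rho between log2 change and GC content was 0.32 over 18705 genes at 1 h and 0.17 over 18895 genes at 24 h, and the median GC content was 50.2% for the 30 genes and 48.6% for all genes tested at 1 h. With a correction for GC content and length 15 of the 30 genes were higher and 2 lower at 1 h. TM7SF2, LSS and SCAP were no longer called then, and HSD17B7 and LPIN1 were. The part of GC content in the remaining calls was not tested.

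Of 29 other genes of sterol regulation, transport and isoprenoid use, 28 were tested. At 1 h 6 were higher and 2 lower, where 10.7% of all 19397 genes tested were called higher and 9.12% lower. SREBF1, the gene of the lipogenic SREBP-1, had the largest log2 change, 0.80 ± 0.045 (85.7 and 88.1 CPM at 1 h, against 50.0 and 49.8 CPM at 0 h), followed by the lipoprotein receptor SCARB1 at 0.21 and the LXR partner RXRA at 0.18. The pair that was lower was the ubiquitin ligase RNF139 at -0.22 and the cholesterol acyltransferase SOAT1 at -0.18. At 24 h 9 were higher and 12 lower, where 22.1% of all 19607 genes tested were called higher and 24.8% lower. RXRA at 0.69, SREBF1 at 0.59 and the sterol transfer protein OSBP at 0.54 had the largest increases, and TMEM97, an NPC1 regulator, at -0.97, the late endosomal protein gene STARD3NL at -0.95 and COQ2 of ubiquinone synthesis at -0.71 the largest decreases.

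In shFOXA1 cells most of the pathway was lower and none of its genes was called higher. Of the 30 genes, 21 were lower and 0 higher in shFOXA1 cells, where 12.3% of 19128 genes tested were called lower, 11.3% higher and 23.6% in all. At an unadjusted p under 0.05 24 were lower and 1 (ABCA1) higher, and the share of all genes at that threshold was not computed. DESeq2 called 20 lower and 0 higher, where it called 1889 of all genes lower and 1527 higher. The median log2 change was -0.42 over the 30 genes and 0.01 over all genes. Of the 18 synthesis genes 16 were lower, with a median fold of 0.667, and PMVK and LSS were not called. In bulk RNA, fewer cells of a kind and less RNA per cell cannot be told apart.

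HMGCS1 was 267 and 242 CPM in shFOXA1 cells, against 479 and 535 CPM in shCtrl cells. SQLE was 118 and 108 CPM in shFOXA1 cells, against 209 and 256 CPM in shCtrl cells. Their folds were 0.502 and 0.486, or log2 changes of -0.99 ± 0.073 and -1.04 ± 0.098 (edgeR adjusted p = 7.73e-06 and 0.000239), and no shFOXA1 library reached a shCtrl library. IDI1 was 141 and 127 CPM in shFOXA1 cells, against 227 and 257 CPM in shCtrl cells. MVD was 71.5 and 71.2 CPM in shFOXA1 cells, against 120.1 and 132 CPM in shCtrl cells, and MVK was 48.4 and 48.0 CPM, against 75.6 and 87.0 CPM in shCtrl cells. DHCR7 was 174 and 156 CPM in shFOXA1 cells, against 271 and 302 CPM in shCtrl cells. These 4 genes had log2 changes of -0.85, -0.82, -0.75 and -0.79, all without overlap.

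The remaining synthesis genes fell by less: TM7SF2 by 0.73, MSMO1 by 0.60, SC5D by 0.60, ACAT2 by 0.57, HSD17B7 by 0.50, CYP51A1 by 0.45, FDFT1 by 0.39, EBP by 0.37, NSDHL by 0.32 and FDPS by 0.29 on the log2 scale, all called. LSS at -0.17 and PMVK at -0.16 were not called (edgeR adjusted p = 0.052 and 0.10). PMVK was called with the GC correction (-0.25, adjusted p = 0.015) and without the second shFOXA1 library (-0.18, adjusted p = 0.022). LSS was called under 3 other choices of normalization or filter and with the GC correction (adjusted p = 0.00755 to 0.049).

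Of the sensing genes, INSIG1 was 112 and 91.8 CPM in shFOXA1 cells, against 163 and 197 CPM in shCtrl cells, a log2 change of -0.82 ± 0.13 (edgeR adjusted p = 0.00836). INSIG2 was 6.80 and 5.41 CPM in shFOXA1 cells, against 8.12 and 8.84 CPM in shCtrl cells (-0.47 ± 0.15, edgeR adjusted p = 0.043). The INSIG2 call was lost by DESeq2, with the GC correction and without any 1 of 3 libraries (either shCtrl library or the second shFOXA1 library). SREBF2 was 447 and 466.5 CPM in shFOXA1 cells, against 504 and 512 CPM in shCtrl cells, and its log2 change of -0.15 ± 0.059 was not called (edgeR adjusted p = 0.077). It was called with the GC correction (-0.23, adjusted p = 0.013) and without the second shFOXA1 library (-0.18, adjusted p = 0.0077). SCAP was 174 and 167 CPM in shFOXA1 cells, against 161 and 168 CPM in shCtrl cells, which overlap. STARD4 was 70.6 and 58.9 CPM in shFOXA1 cells, against 103 and 115 CPM in shCtrl cells (-0.75 ± 0.090, edgeR adjusted p = 0.000356), and NPC1 fell by 0.34. NPC1L1 was 7.09 and 3.36 CPM in shFOXA1 cells, against 4.27 and 4.19 CPM in shCtrl cells, and the shFOXA1 libraries lay on either side of the controls. It was called at 0.75 without the second shFOXA1 library.

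The 4 LXR and export genes held no call in shFOXA1 cells by edgeR or by DESeq2 (0 of 4 each), and 1 of them, ABCA1, had an unadjusted p under 0.05. ABCA1 was 7.67 and 11.8 CPM in shFOXA1 cells, against 7.05 and 6.80 CPM in shCtrl cells (0.49 ± 0.19, edgeR adjusted p = 0.092). Without the first shFOXA1 library it was called at 0.78, and it was also called with no filter on low counts (adjusted p = 0.00675). ABCG1 was 7.21 and 6.16 CPM in shFOXA1 cells, against 7.22 and 8.00 CPM in shCtrl cells. NR1H3 was 18.8 and 18.4 CPM in shFOXA1 cells, against 16.3 and 16.0 CPM in shCtrl cells. MYLIP was 13.5 and 19.3 CPM in shFOXA1 cells, against 14.8 and 14.5 CPM in shCtrl cells, and was called at 0.41 without the first shFOXA1 library. The shFOXA1 libraries thus differed from each other most in ABCA1, MYLIP and NPC1L1 among these low genes. LPIN1 was 86.9 and 92.1 CPM in shFOXA1 cells, against 105 and 129 CPM in shCtrl cells, a log2 change of -0.38 ± 0.092 (edgeR adjusted p = 0.0153).

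The libraries of this experiment stood further apart than those of the others. The chi-square per degree of freedom between libraries of 1 group was 11.8 for shFOXA1 and 4.04 for shCtrl, against 2.04 to 3.04 in the other 5 groups. Of the 18 synthesis genes, 14 were lower in the second than the first shFOXA1 library (median log2 ratio -0.14) and 13 were higher in the second than the first shCtrl library (median 0.11), while the median over all genes of at least 10 CPM was 0.00 and 0.02. Without the second shCtrl library 15 of the 30 genes were lower, and FDPS, NSDHL, HSD17B7, INSIG2, NPC1 and LPIN1 were no longer called. Without the first shCtrl library FDPS and INSIG2 were not called. The summed level of 3 hepatocyte markers was 69.7 and 18.8 CPM in shFOXA1 cells, against 449.8 and 469.9 CPM in shCtrl cells, nearly all of it ALB, and APOB was at 0 in both shFOXA1 libraries and in 1 shCtrl library. The part of this in the change of the sterol genes was not tested.

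Among the 29 other sterol genes 3 were higher and 4 lower in shFOXA1 cells. The share called is near the 23.6% of all 19128 genes tested (11.3% higher, 12.3% lower). Among those higher were RXRA at 0.97 and MBTPS1, the protease that first cuts SREBPs, at 0.25. PDSS1 of ubiquinone synthesis at -0.56, SREBF1 at -0.40 and SOAT1 at -0.38 had the largest decreases.

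The hairpin and 24 h comparisons share no library, and 18 genes were lower in both. These were 85.7% of the 21 lower in shFOXA1 cells and 94.7% of the 19 lower at 24 h. Over the 17487 genes tested in both, 7.58% were lower in both, or 58.6% of those lower in shFOXA1 cells and 28.3% of those lower at 24 h. Pearson's r between the log2 changes of the 30 genes was 0.71 (Spearman's rho 0.73), and 0.30 over 17494 genes, as a description across genes of the same pathway. LPIN1 was called in opposite directions, lower in shFOXA1 cells and higher at 24 h. The difference between the changes themselves, shFOXA1 minus 24 h, was called for 10 of the 30 genes, 2 positive and 8 negative, against 23.3% of 19932 genes (13.5% positive, 9.80% negative). LPIN1 at -0.84 ± 0.11, ABCG1 at -0.79 ± 0.27 and ACAT2 at 0.66 ± 0.11 were the largest (edgeR adjusted p = 4.79e-05, 0.037 and 0.000137). The ACAT2 change was -0.57 in shFOXA1 cells and -1.24 at 24 h. MVD at -0.51, LSS at -0.41, EBP at -0.40, MVK at -0.40, DHCR7 at -0.33 and SCAP at -0.22 were negative, and PMVK at 0.25 was positive. HMGCS1 at -0.12 ± 0.085, SQLE at 0.00 ± 0.12 and INSIG1 at 0.04 ± 0.17 had no called difference. The count of 10 fell to 6 without the first 0 h library or the first 24 h library and to 5 without the second shCtrl library.

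**Figure D3:**
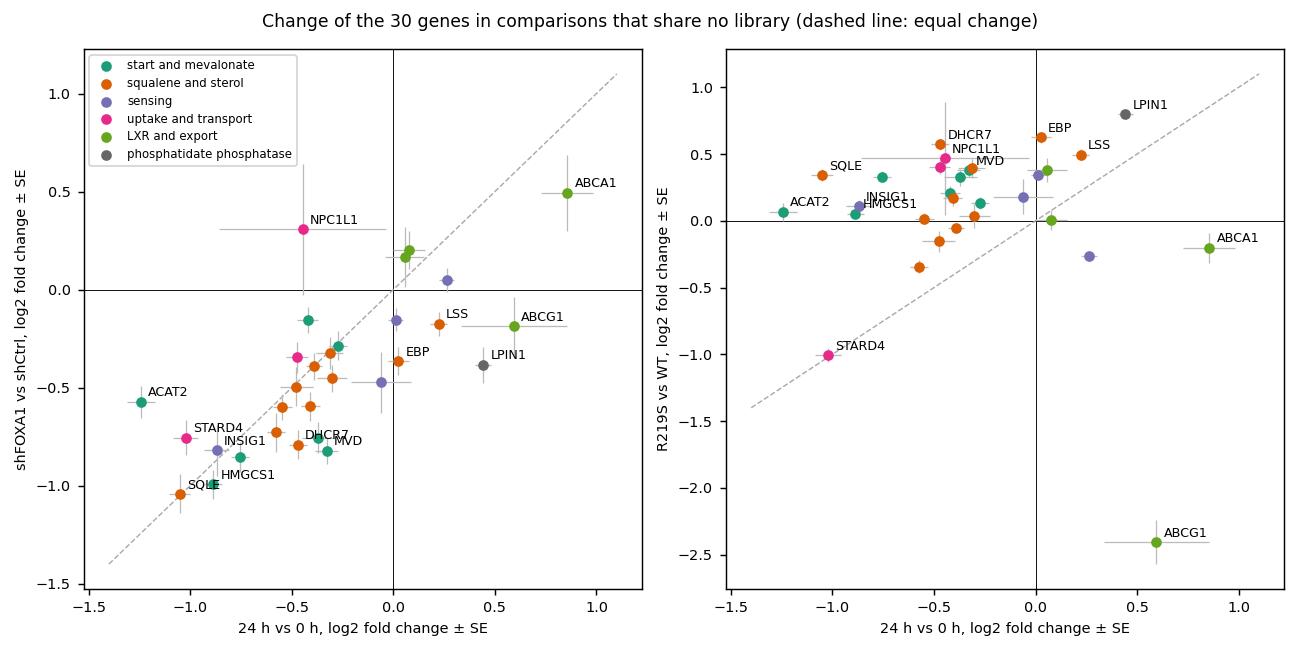
Log2 fold change with SE of the 30 genes at 24 h of degron depletion (x axes), against that in shFOXA1 cells (left, y axis) and in R219S cells (right, y axis), coloured by role, with a dashed line of equal change. On the left most synthesis genes lie at the lower left and LPIN1 at the lower right, and on the right most synthesis genes lie above 0 on the y axis.

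In R219S cells the pathway was mostly higher than in WT cells, by modest amounts, while the carrier STARD4 and the exporter ABCG1 were much lower. Of the 30 genes, 16 were higher and 4 lower, where 30.5% of 13990 genes tested were called higher, 31.6% lower and 62.1% in all. The share of the 30 genes called, 20, is near that of all genes, and the split by direction is what differs. The median log2 change was 0.18 over the 30 genes and 0.00 over all genes. Of the 18 synthesis genes 11 were higher, 1 was lower and 6 were not called, with a median fold of 1.14.

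EBP was 167 and 167 CPM in R219S cells, against 110.1 and 106 CPM in WT cells, a log2 change of 0.62 ± 0.043 (edgeR adjusted p = 1.17e-40). DHCR7 was 231 and 222 CPM in R219S cells, against 151 and 154 CPM in WT cells (0.57 ± 0.041, edgeR adjusted p = 1.61e-38). LSS was 199 and 197 CPM in R219S cells, against 141 and 140 CPM in WT cells (0.50 ± 0.041, edgeR adjusted p = 3.68e-29). These genes of the sterol ring steps had the largest changes of the synthesis genes, with no overlap between groups. NSDHL, which acts with MSMO1, was 33.0 and 29.97 CPM in R219S cells, against 25.1 and 22.4 CPM in WT cells. MVD, SQLE, IDI1, MVK and PMVK changed by 0.38, 0.34, 0.33, 0.33 and 0.21, and SC5D and FDPS by 0.17 and 0.14. SC5D and FDPS were not called by DESeq2 (adjusted p = 0.059 and 0.052). Nor was SC5D called without the first WT library, nor FDPS without the first R219S or the second WT library.

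Not all synthesis genes took part. ACAT2 at 0.07, HMGCS1 at 0.05, CYP51A1 at 0.04, MSMO1 at 0.02 and FDFT1 at -0.05 were not called, and HSD17B7 at -0.15 was not either (edgeR adjusted p = 0.077). FDFT1 and HSD17B7 were called lower with the GC correction, and HSD17B7 also without the first R219S library. TM7SF2 was the synthesis gene that was lower in R219S cells, by 0.34 on the log2 scale.

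Among the sensing genes SREBF2 was 658 and 644 CPM in R219S cells, against 515 and 509 CPM in WT cells, a log2 change of 0.35 ± 0.037 (edgeR adjusted p = 1.81e-18). SCAP was 348.5 and 339 CPM in R219S cells, against 412 and 413 CPM in WT cells (-0.26 ± 0.038, edgeR adjusted p = 6.44e-11). The gene of the factor was thus higher and that of its escort lower. INSIG1 was 105 and 113 CPM in R219S cells, against 101 and 101 CPM in WT cells (0.11 ± 0.045, edgeR adjusted p = 0.024), a call that DESeq2 did not make (adjusted p = 0.13) and that was lost without the second R219S library or without either WT library. INSIG2 was 7.29 and 7.36 CPM in R219S cells, against 6.28 and 6.68 CPM in WT cells, and was not called.

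STARD4 was 41.2 and 46.0 CPM in R219S cells, against 85.9 and 89.6 CPM in WT cells, a log2 change of -1.0 ± 0.052 (edgeR adjusted p = 2.11e-64). It was the only one of the 30 genes called lower in all 4 comparisons. NPC1 was 64.1 and 61.02 CPM in R219S cells, against 48.6 and 45.6 CPM in WT cells, and was higher by 0.40. NPC1L1 was 0.747 and 0.701 CPM in R219S cells, against 0.571 and 0.451 CPM in WT cells, and was not called.

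ABCG1 was 1.35 and 2.14 CPM in R219S cells, from 29 and 55 counts, against 9.29 and 9.65 CPM in WT cells, from 358 and 257 counts. This log2 change of -2.41 ± 0.16, or 0.189-fold (edgeR adjusted p = 6.11e-41), was the largest of the 30 genes in any comparison. ABCA1 was 7.43 and 8.87 CPM in R219S cells, against 8.97 and 10.0 CPM in WT cells, and its change of -0.20 ± 0.11 was not called (edgeR adjusted p = 0.11). Without the second R219S library it was -0.34 and called. NR1H3 was 24.4 and 22.6 CPM in R219S cells, against 23.5 and 23.1 CPM in WT cells, which overlap. MYLIP was 15.8 and 16.8 CPM in R219S cells, against 12.6 and 12.4 CPM in WT cells, higher by 0.38 ± 0.091. The genes of LXR output thus went in different directions. LPIN1 was 231 and 227 CPM in R219S cells, against 134 and 129 CPM in WT cells, a log2 change of 0.80 ± 0.041 (edgeR adjusted p = 3.18e-66), the largest increase of the 30 genes here.

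**Figure D4:**
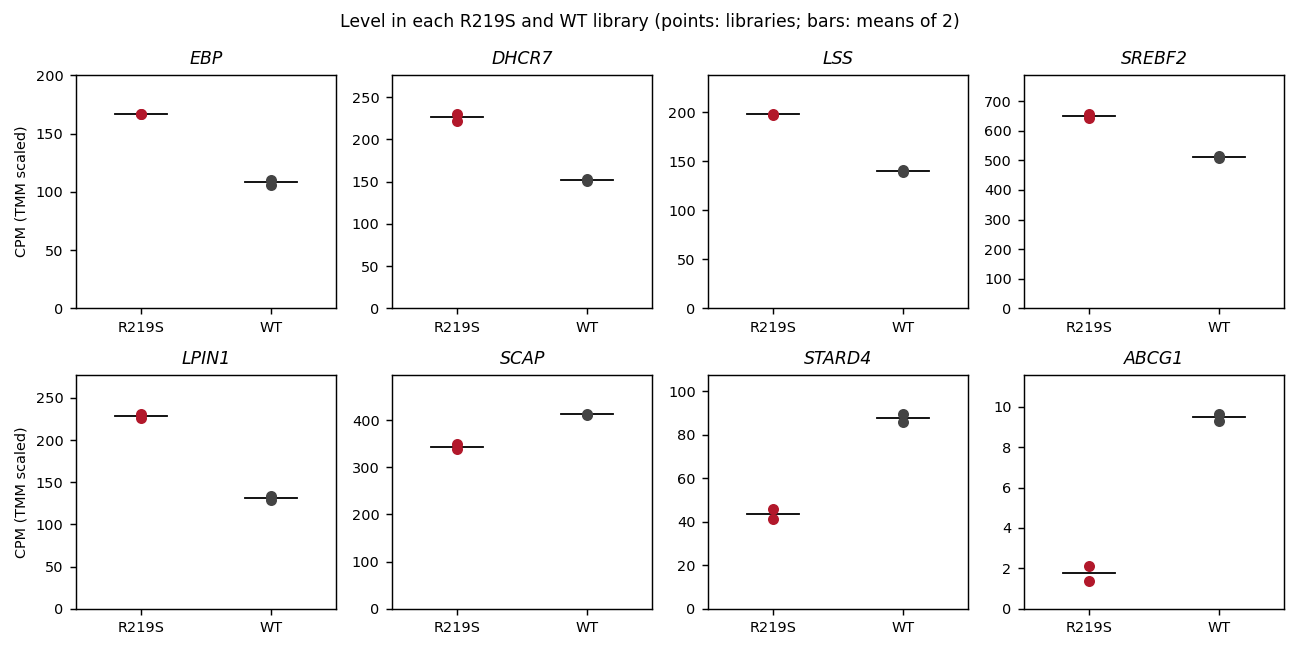
CPM (y axes, linear from 0, TMM scaled) of 8 of the 30 genes in each R219S and WT library. Points are single libraries and bars are means of 2. EBP, DHCR7, LSS, SREBF2 and LPIN1 are higher and SCAP, STARD4 and ABCG1 lower in R219S cells, with no overlap in any of the 8.

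Among the other sterol genes 15 were higher and 6 lower in R219S cells, where 30.5% of all 13990 genes tested were called higher and 31.6% lower. CYP27A1, a sterol hydroxylase that makes an oxysterol, changed by 1.53 from a low level (1.49 and 1.36 CPM in R219S cells, against 0.493 and 0.488 CPM in WT cells). SREBF1 changed by 1.01 (841 and 804 CPM in R219S cells, against 399 and 415 CPM in WT cells) and PDSS1 by 0.53. The lipoprotein receptor VLDLR at -1.63, STARD3NL at -0.99 and COQ2 at -0.37 had the largest decreases. Summed hepatocyte markers were 3.50 and 3.04 CPM in R219S cells, against 25.2 and 25.3 CPM in WT cells, nearly all ALB. The summed level of 4 fibroblast markers was 232 and 239 CPM in R219S cells, against 217 and 209 CPM in WT cells, mostly LUM with COL1A2 at 0 in all 4 libraries, and it was 16.5 to 19.5 CPM in the other 10 libraries. The part of these in the change of the sterol genes was not tested.

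The R219S and 24 h comparisons, which share no library, differed in nearly all of the pathway. The difference of the changes, R219S minus 24 h, was positive for 23 of the 30 genes and negative for 3 (56.0% of 13472 genes called), and positive for all 18 synthesis genes, from 0.22 for TM7SF2 to 1.39 for SQLE. With shFOXA1 in place of 24 h, 22 were positive and 3 negative (41.6% of 13480 genes called, 19.5% positive and 22.1% negative), and 17 of the 18 synthesis genes were positive. Of the 30 genes, 11 were higher in R219S cells and lower at 24 h, against 8.62% of the 12583 genes tested in both, and 12 were higher in R219S cells and lower in shFOXA1 cells, against 4.14% of 12394 genes. Pearson's r over the 30 genes was -0.15 between R219S and 24 h and -0.06 between R219S and shFOXA1, beside 0.31 and 0.16 over all genes. STARD4 changed by -1.0 in R219S cells and -1.02 at 24 h, a difference of 0.01 ± 0.082 (edgeR adjusted p = 0.93). ABCG1 differed by -3.01 ± 0.30 and ABCA1 by -1.07 ± 0.17 between R219S and 24 h.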

How the data were processed

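RNA was extracted with an RNA Fast2000 kit, per the labels. The authors deposited raw read counts per gene in 4 tables. Per the submitters' processing notes, STAR, featureCounts, DESeq2 and the build hg19 were used; versions, annotation and strand setting are not given in the sources used here. The knockdown and degron tables carried Ensembl identifiers, matched to symbols in GENCODE v29, and the R219S table carried symbols. The 0 h counts were identical in both degron tables for 57905 features.

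Tests were made per comparison, on the libraries it concerns, by edgeR 4.0.16 under R 4.3.3 (genes kept by filterByExpr, TMM scaling, robust quasi-likelihood F test, Benjamini-Hochberg over all genes tested, threshold 0.05). SE is the log2 change divided by the square root of F. The 24 h against 1 h contrast used 6 libraries, and differences between changes used an interaction over 8 libraries joined by symbol. CPM are TMM scaled; degron levels use 1 scale for 6 libraries. On simulated data with known changes the scripts recovered nearly all changed genes. The planted changes were larger than most reported here, in well-counted genes, with a fixed spread between libraries. Recovery of smaller changes, or of changes in genes with low counts, was not tested. Alternatives were DESeq2 1.42.0, RLE scaling, no filter, a 1 CPM filter, a replicate block, a spline offset for GC content and length, and leaving out each library. Same-numbered libraries deviated from their group means with correlations of -0.016 to 0.034 over all genes (over the 30 genes, -0.82 at 1 h, 0.72 at 24 h, -0.09 in shFOXA1 and 0.46 in R219S), and no label pairs them, so numbers were not taken as pairs. Figures used matplotlib 3.10.9.

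The members and lists were chosen with earlier results of these data known. All 30 genes are named in each comparison; library values are given for the 8 called genes with the largest change and for the sensing and LXR genes, and other sterol genes are named where called, up to 3 per direction, except that a few genes of the pathway, 1 of them among those called in shFOXA1 cells, are not reported here. Precision is limited by 2 libraries a group and by counts for low genes such as NPC1L1. With 2 libraries a group, values without overlap are weak evidence of a change, and their share over all genes was not computed. Of the 30 genes, those without overlap that were not called numbered 5 at 1 h, 3 at 24 h, 6 in shFOXA1 cells and 6 in R219S cells.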

Additional observations from a re-analysis of the deposited data

Results flagged for a closer look

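By edgeR with the interaction over 8 libraries, the changes in shFOXA1 cells and at 24 h differed for 10 of the 30 genes. This tested the difference itself. Over all 19932 genes tested 23.3% were called, 13.5% positive and 9.80% negative. The log2 difference, shFOXA1 minus 24 h, was -0.839 for LPIN1, -0.795 for ABCG1, 0.657 for ACAT2, -0.505 for MVD, -0.411 for LSS, -0.403 for EBP, -0.398 for MVK, -0.334 for DHCR7, 0.253 for PMVK and -0.224 for SCAP. LPIN1 fell in shFOXA1 cells (-0.38) and rose at 24 h (0.44). LSS changed by -0.17 in shFOXA1 cells, not called, and by 0.22 at 24 h. The calls of ABCG1, DHCR7, MVK, PMVK and SCAP were lost under at least 1 alternative, and those of LPIN1, ACAT2, MVD, LSS and EBP held under every alternative run. ABCG1 rested on 250 and 207 counts in shFOXA1 cells, against 250 and 294 in shCtrl cells, and on 62 and 67 counts at 24 h, against 39 and 51 at 0 h.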

How the results depend on the processing

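Of 2815 recomputed values of the 30 genes over 8 contrasts and all alternatives, 2659 kept their side of the threshold, 111 lost and 43 gained a call, and 2 turned round: SCAP at 1 h to -0.017 and SREBF2 at 24 h to -0.088, both with the GC and length correction. Of the 2659, 66 changed sign, none of them called in either fit. Calls that held under every alternative run numbered 12 of 18 at 1 h, 22 of 23 at 24 h, 15 of 21 in shFOXA1 cells and 17 of 20 in R219S cells. At 1 h DESeq2 called 1851 genes, against 3850 by edgeR; with 1 library left out the count ran from 2232 (second 1 h library) to 3422 (second 0 h library), with 2428 without the first 1 h library. The shFOXA1 count of 4506 ran from 1713 without the second shCtrl library to 6793 without the first shFOXA1 library, with 2421 without the first shCtrl library. The count of called differences between shFOXA1 and 24 h among the 30 genes, 10 with all libraries, ran from 5 to 14 with 1 library left out. The cause of these shifts was not tested. Treating the replicate number as a block changed no count by over 1.5 times: 19, 23, 20 and 20 of the 30 genes were called at 1 h, 24 h, in shFOXA1 and in R219S cells, and HSD17B7 at 1 h gained its call and INSIG2 in shFOXA1 cells lost it. Other scalings moved the median of all genes by under 0.05 (log2). Depth limits ABCG1 and NPC1L1, and 2 libraries a group limit every test.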
